A study of Mus musculus with 6 samples.

Results

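Long noncoding RNAs whose genes carry small nucleolar RNAs (snoRNAs) were examined in the ventricles of neonatal mice lacking miR-125b-1 in the heart. The group holds 8 genes, Gas5, Snhg1, Snhg6, Snhg16, Zfas1, 1110038B12Rik, 2410006H16Rik and 2700038G22Rik, with 10 probe sets, out of 215 named genes and 271 probe sets in the table analysed here. These 8 genes were selected on the contrast of knockout with wild-type ventricles, since every probe set of the table differs by at least 1.00 between the mean log2 intensities of the genotypes. Their knockout against wild-type values are therefore given as a description with no test. RefSeq calls all 8 genes long noncoding RNAs, and each holds at least 1 annotated snoRNA, so the label of the group fits the annotation.

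RNA was taken at postnatal day 1 (P1) from ventricles of 3 wild-type samples, genotype aMHC-Cre with 125b1+/+, and of 3 knockout samples, genotype aMHC-Cre with 125b1f/f. Both groups thus carry the Cre transgene, which is driven by the Myh6 (aMHC) promoter and acts in cardiomyocytes, and they differ in the loxP-flanked miR-125b-1 allele. Each sample was hybridised to 1 Affymetrix mouse genome expression array. The study's methods speak of 3 independent experiments, and no source used here says whether an array holds 1 pup or several. Ventricles hold other cells than cardiomyocytes, and in such bulk RNA more RNA per cell and a larger share of the cells that make it cannot be told apart.

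A snoRNA host gene is transcribed as a longer RNA that is spliced. The snoRNAs are trimmed out of the introns and guide the chemical modification of ribosomal RNA, those of the C/D box class (symbols beginning with Snord) by 2′-O-methylation of the ribose. What is left, the joined exons, is a noncoding RNA that in several hosts, Gas5 and Snhg1 among them, is read by ribosomes and then removed by nonsense-mediated decay, so that it is known to build up when translation or growth is restrained. Many hosts share with ribosomal protein genes a start of transcription within a run of pyrimidines, the terminal oligopyrimidine (TOP) start. The array reports on the polyadenylated host RNA, and no probe set of the table is annotated to a snoRNA, so the snoRNAs themselves are not analysed here.

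The microRNA removed in these mice is shown first, from RefSeq on GRCm38.p6, because the same mature strand is also made from a second gene that the knockout leaves in place. Capitals mark the seed, bases 2 to 8. The gene deleted in the heart, Mir125b-1, gives the strand at chr9:41581940-41581961 on the plus strand, and Mir125b-2 gives it at chr16:77646279-77646300 on the plus strand.
mmu-miR-125b-5p from Mir125b-1: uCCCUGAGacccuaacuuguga
mmu-miR-125b-5p from Mir125b-2: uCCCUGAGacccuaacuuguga
mmu-miR-125a-5p from Mir125a: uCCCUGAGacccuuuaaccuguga
mmu-miR-125b-1-3p from Mir125b-1: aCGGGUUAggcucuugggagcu
The strands of Mir125b-1 and Mir125b-2 are the same letter for letter, and miR-125a-5p, at chr17:17830817-17830840 on the plus strand, has the same seed. The opposite strand of the hairpin, miR-125b-1-3p at chr9:41581980-41582001, has another seed and is listed for Mir125b-1 alone. The transcripts of the hosts were not searched for sites of this seed, since no transcript sequence was used here.

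The hosts hold 29 annotated snoRNAs between them, of 45 to 126 bases each, as drawn to scale in the map of the host genes. RefSeq coordinates (GRCm38.p6) place Gas5 at chr1:161034601-161038539 with 8 snoRNAs, Snord47 among them, and Snhg1 at chr19:8723487-8726326, also with 8, the one nearest its end being Snord22. Snhg16 at chr11:116671660-116675798 holds the 3 snoRNAs Snord1a, Snord1b and Snord1c. Another 3 lie in 2410006H16Rik at chr11:62602877-62604806, namely Snord49a, Snord49b and Snord65. Zfas1 at chr2:167062934-167065862 has 3, one of them Snord12. In 1110038B12Rik at chr17:34950235-34952471 there are 2, one of them Snord52. Snhg6 at chr1:9942025-9944118 has the single Snord87, and 2700038G22Rik at chr5:23850597-23855033 the single Snord93. By symbol 12 of the 29 are of the C/D box class, and the symbols of the others give no class. SnoRNAs take up 21.8% of the span of Snhg1 and 14.6% of that of Gas5, against 1.01% of that of 2700038G22Rik, the longest of the hosts at 4437 bases. The tables used here give no exons and no strand for the snoRNAs, so their place in an intron and on the strand of the host could not be checked.

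**Figure D1:**
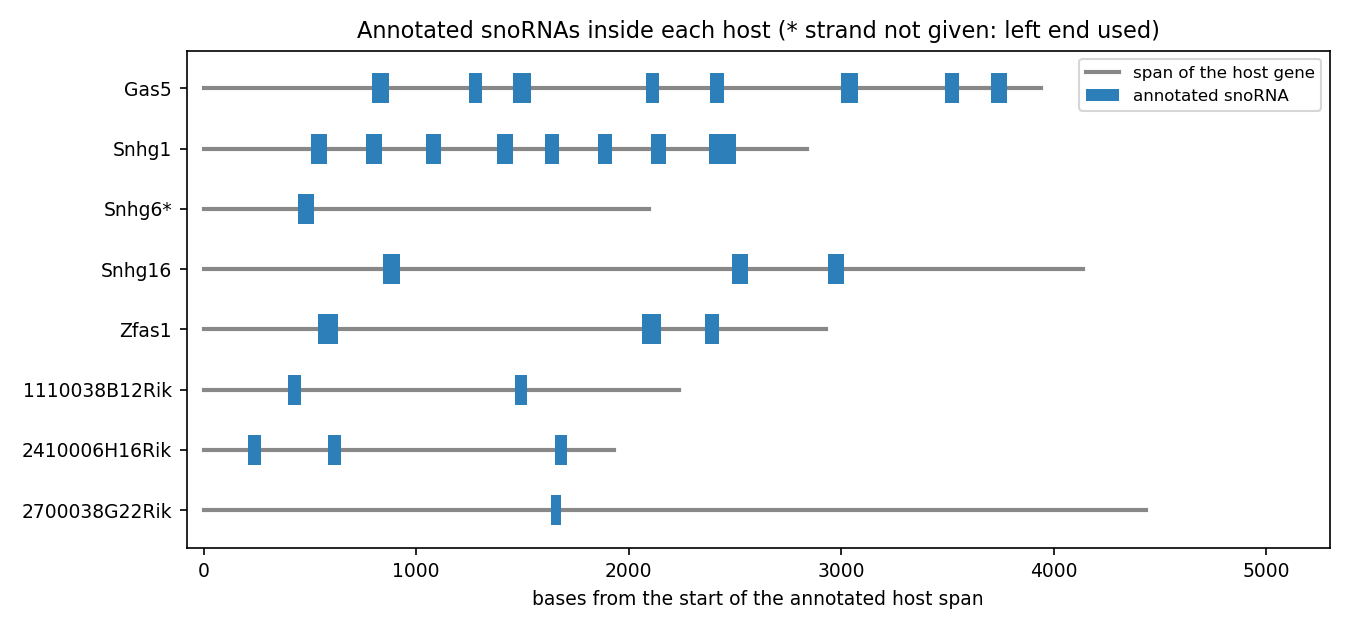
Annotated span of each host gene (grey line, in bases from its start on the x axis) with the annotated snoRNAs inside it (blue boxes, to scale). Gas5 and Snhg1 carry 8 snoRNAs each and 2700038G22Rik carries 1 in the longest span, while for Snhg6 no strand was given and the left end of its span was used.

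Holding a snoRNA is uncommon among long noncoding genes. Of 12731 such genes in RefSeq, 108 hold at least 1, which is 0.848%. Of the 11 in the table, 8 do, and these are the hosts described here. Because the genes were noticed in this table and then grouped, this share was not tested.

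In the knockout ventricles 7 of the 8 hosts were higher and 1, 2700038G22Rik, was lower. Counted by probe set, 9 were higher and 1 lower, and none of the 10 overlapped between genotypes. Across all 271 probe sets, 67.5% were higher in the knockout without overlap and 32.5% were lower without overlap, so lack of overlap is a property of the table and says nothing particular of the hosts. The median log2 fold change, knockout minus wild-type, was 1.94 over the 10 host probe sets and 1.18 over all 271. Among the higher probe sets alone it was 1.99 for the 9 of the hosts and 1.41 for the 183 of the table. The plot of all probe sets by rank shows where the hosts stand.

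**Figure D2:**
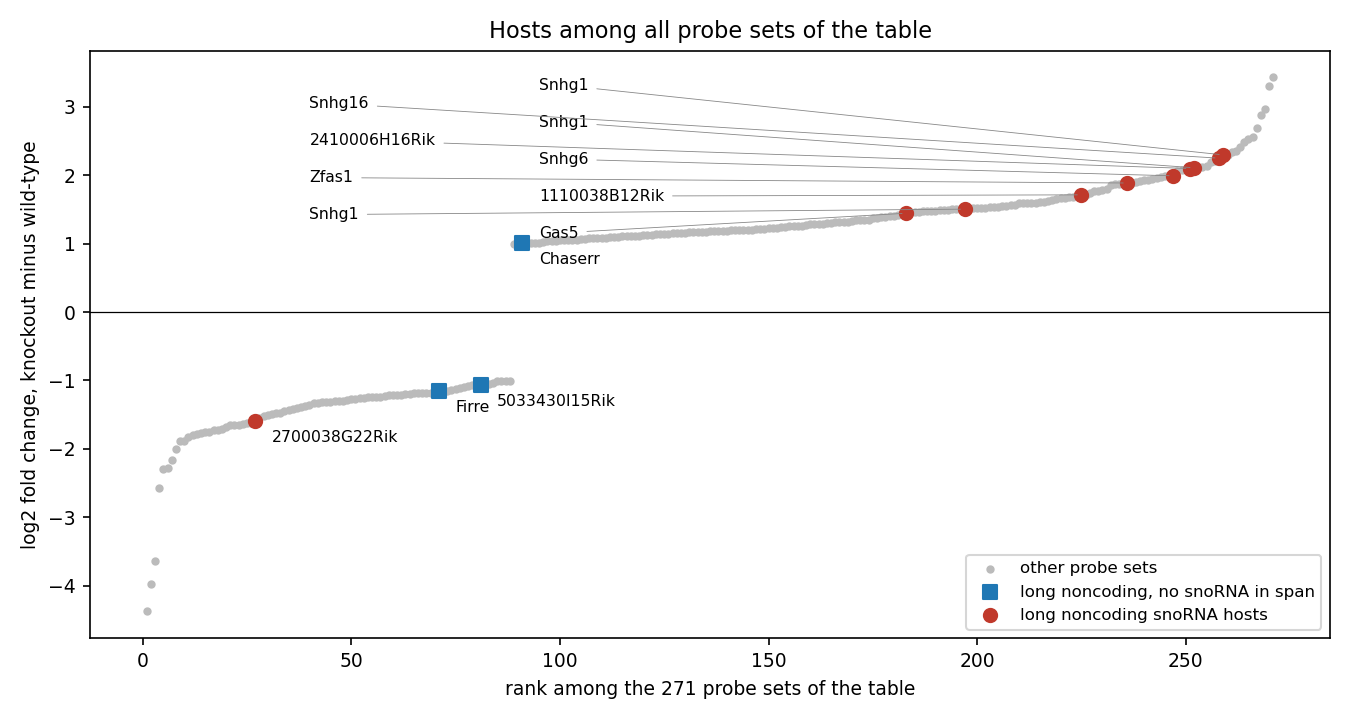
Log2 fold change, knockout minus wild-type (y axis), of the 271 probe sets ordered by it (x axis), with the 10 host probe sets as red circles and the 3 other long noncoding genes as blue squares. The 9 higher host probe sets sit between 1.45 and 2.30 and 2700038G22Rik at -1.59, and no probe set lies between -1 and 1 because of how the table was selected.

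Gas5, the growth arrest-specific transcript, is known for accumulating in cells that stop dividing, and its RNA can bind the DNA-binding domain of the glucocorticoid receptor. Its probe set 1449410_a_at read 1192, 1252 and 1241 on the wild-type arrays and 3132, 3466 and 3446 on the knockout arrays. All 3 knockout values were above all 3 wild-type values, and the lowest of them was 2.50 times the highest wild-type value. The group means were 1228 ± 32.2 and 3348 ± 187 (SD, n = 3 each), a log2 fold change of 1.45 with a standard error of 0.11 from limma. This was the smallest difference of the higher host probe sets, at rank 89 of the 183 higher probe sets of the table, and in linear terms it was 2.72-fold. The span of Gas5 overlaps that of Zbtb37, which is not analysed here.

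Snhg1, the host of Snord22, was read by 3 probe sets, which differed in the size of the change. The probe set 1433675_at gave 384.8, 418.2 and 456.5 in the wild-type and 1998, 2011 and 2174 in the knockout, a 4.92-fold difference. With 1433674_a_at the values were 560.1, 625 and 684 in the wild-type and 2591, 2593 and 2866 in the knockout, a 4.32-fold difference. With 1439399_a_at they were 589, 594 and 571 in the wild-type and 1648, 1549 and 1789 in the knockout, a 2.84-fold difference. None of these overlapped between genotypes. On the log2 scale the first pair differed by 0.19, and 1439399_a_at, at 1.505, stood 0.605 below the nearer of them. The standard error of each difference, 0.16, treats the probe sets as independent. The same arrays read both probe sets of a pair, so this error cannot decide whether they agree. RefSeq lists 1 transcript for Snhg1, and which part of it each probe set reads was not analysed here. The third knockout array was the highest of its group on all 3 probe sets.

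Snhg16, the host of the Snord1 family, had the largest difference of a host read by 1 probe set. Its probe set 1453344_at read 113, 126 and 127 on the wild-type arrays and 582, 641 and 523 on the knockout arrays. The lowest knockout array was 4.12 times the highest wild-type array. The means were 122 ± 7.85 and 582 ± 58.9 (SD, n = 3 each), a log2 fold change of 2.25 with a standard error of 0.12, or 4.76-fold.

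The clone-named host of Snord49a, Snord49b and Snord65, 2410006H16Rik, followed with a log2 fold change of 2.10. Its values on 1447936_at were 535, 506 and 501 in the wild-type and 2095, 2465 and 2064 in the knockout. The second knockout array stood above the other two, and all 3 were above the wild-type arrays by at least 3.86 times. The means were 514 ± 18.2 and 2208 ± 223 (SD, n = 3 each), so the knockout arrays varied more, with a coefficient of variation of 10.1% against 3.53%.

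Snhg6, the host of Snord87, read 565.3, 685.5 and 597.0 in the wild-type and 2748, 2343 and 2261 in the knockout on 1436506_a_at. By coefficient of variation its arrays spread most of all host probe sets in each genotype, at 10.1% in the wild-type and 10.6% in the knockout, and the groups stayed apart by at least 3.30 times. The log2 fold change was 1.99, with a standard error of 0.12, or 3.98-fold. Its span overlaps that of the protein-coding gene Mcmdc2, which is not analysed here.

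Zfas1 is transcribed beside the start of Znfx1, a gene for a zinc finger helicase-like protein, and the annotated spans of the pair overlap. Its probe set 1455010_at read 667.5, 563 and 662 in the wild-type and 2327, 2265 and 2391 in the knockout. The knockout arrays lay close together, with a coefficient of variation of 2.72% against 9.29% in the wild-type. The log2 fold change was 1.89, with a standard error of 0.11, or 3.70-fold. Znfx1 itself is not analysed here.

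The host of Snord52, 1110038B12Rik, was the higher host with the next to smallest change when the brightest probe set of each host is taken. Its probe set 1441081_a_at read 414, 463 and 487 in the wild-type and 1409, 1552 and 1510 in the knockout. The means were 455 ± 37.4 and 1490.0 ± 73.4 (SD, n = 3 each), a log2 fold change of 1.71 with a standard error of 0.11, or 3.28-fold.

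The one host that was lower in the knockout, 2700038G22Rik, has Snord93 within its annotated span. Its probe set 1453745_at read 268, 289 and 296 in the wild-type and 99.5, 91.2 and 93.0 in the knockout. Every knockout array was below every wild-type array, and the lowest wild-type value was 2.70 times the highest knockout value. The means were 284.5 ± 14.6 and 94.5 ± 4.37 (SD, n = 3 each), a log2 fold change of -1.59 with a standard error of 0.11, so that the RNA was 3.01-fold lower. It stood at rank 27 of the 88 lower probe sets. Its annotated span overlaps that of another long noncoding gene, Gm42228, which is not analysed here. Snord93, at chr5:23852233-23852277, lies in the stretch they share, so which of these genes hosts it could not be checked.

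**Figure D3:**
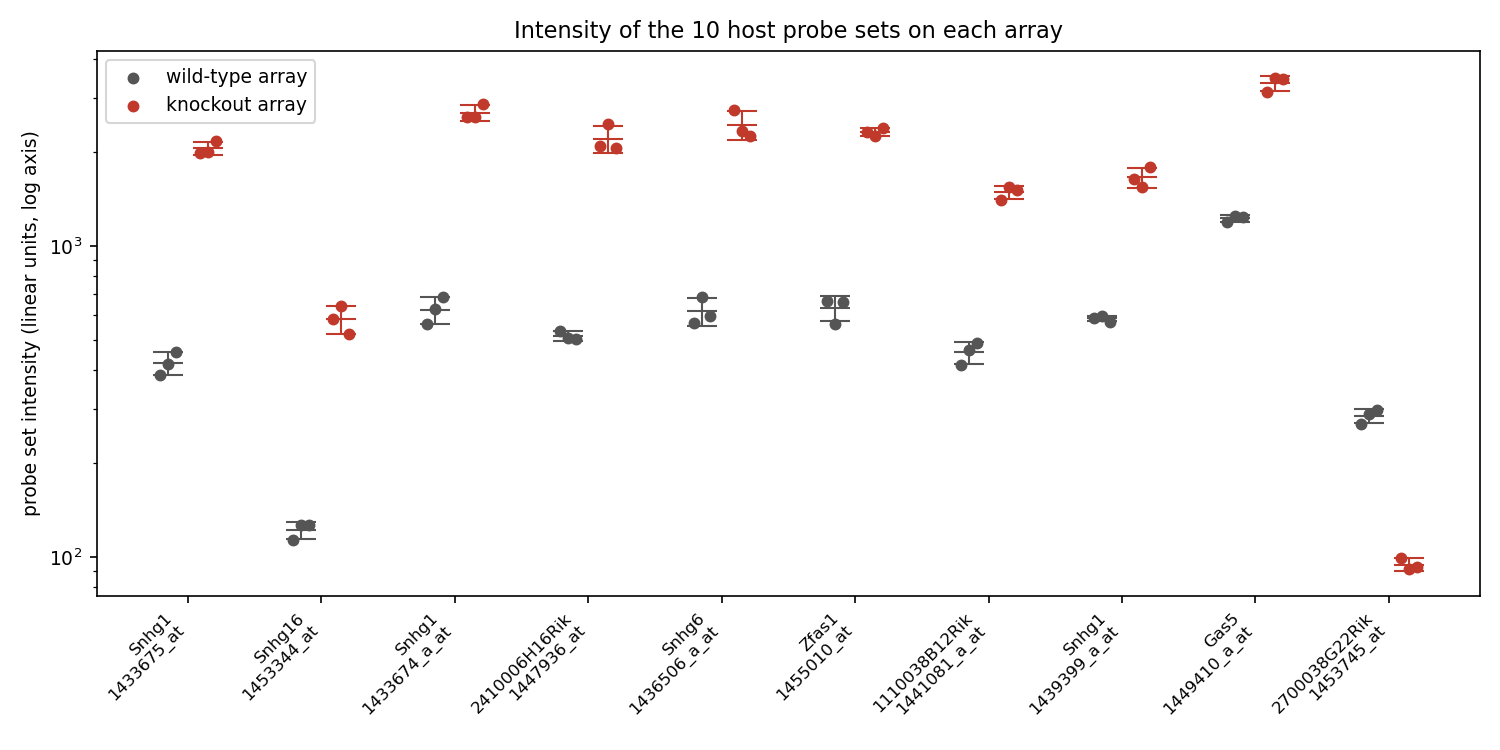
Intensity (linear units on a log axis) of the 10 host probe sets on wild-type (grey, n = 3) and knockout arrays (red, n = 3), where bars stand for group means and SDs, ordered by log2 fold change. The red points are above the grey ones for 9 probe sets, from 1433675_at of Snhg1 at 4.92-fold to Gas5 at 2.72-fold, and below them for 2700038G22Rik.

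In order of the log2 fold change, the hosts by their brightest probe set were Snhg16 at 2.25, Snhg1 at 2.11, 2410006H16Rik at 2.10, Snhg6 at 1.99, Zfas1 at 1.89, 1110038B12Rik at 1.71, Gas5 at 1.45 and 2700038G22Rik at -1.59. Neighbours from Snhg16 down to Zfas1 differed by 0.01 to 0.14, less than the standard error of such a difference, 0.16. That error treats the probe sets as independent though the same arrays read both, so it cannot settle the order within a pair. Differences within each array were not analysed here, and hosts further apart were not compared. The step of 0.17 from Zfas1 to 1110038B12Rik was about as large as that error, and the step of 0.27 from there to Gas5 was larger. The spread of the hosts within a genotype was like that of the table, with a median SD of log2 intensity of 0.11 in the wild-type and 0.08 in the knockout, against 0.13 and 0.12 over all probe sets. No single array held the extreme for all hosts. The first wild-type array was the lowest of its group for 7 of the 10 probe sets. In the knockout the lowest value came from the first array for 4 probe sets, from the second for 3 and from the third for 3.

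The size of these differences depends on the scaling of the arrays. Medians of the log2 intensities stood 0.54 higher on the knockout arrays. With each array centred on its median, the log2 fold changes of Gas5 and of 1439399_a_at of Snhg1 came to 0.90 and 0.96, those of the other higher host probe sets to between 1.17 and 1.76, and that of 2700038G22Rik to -2.13. Quantile normalization brought Gas5 to 0.87, 1439399_a_at to 0.795 and 1110038B12Rik to 0.94, and moved the fold by up to 1.71 times. Under both of these the direction of every host was kept. The table as a whole also kept 183 probe sets higher and 88 lower, so this is not particular to the hosts. Of the 9 higher host probe sets, 7 and 6 still differed by at least 1. In the table as a whole 66 and 65 of the 183 did so. Probe sets outside the selection are not analysed here.

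**Figure D4:**
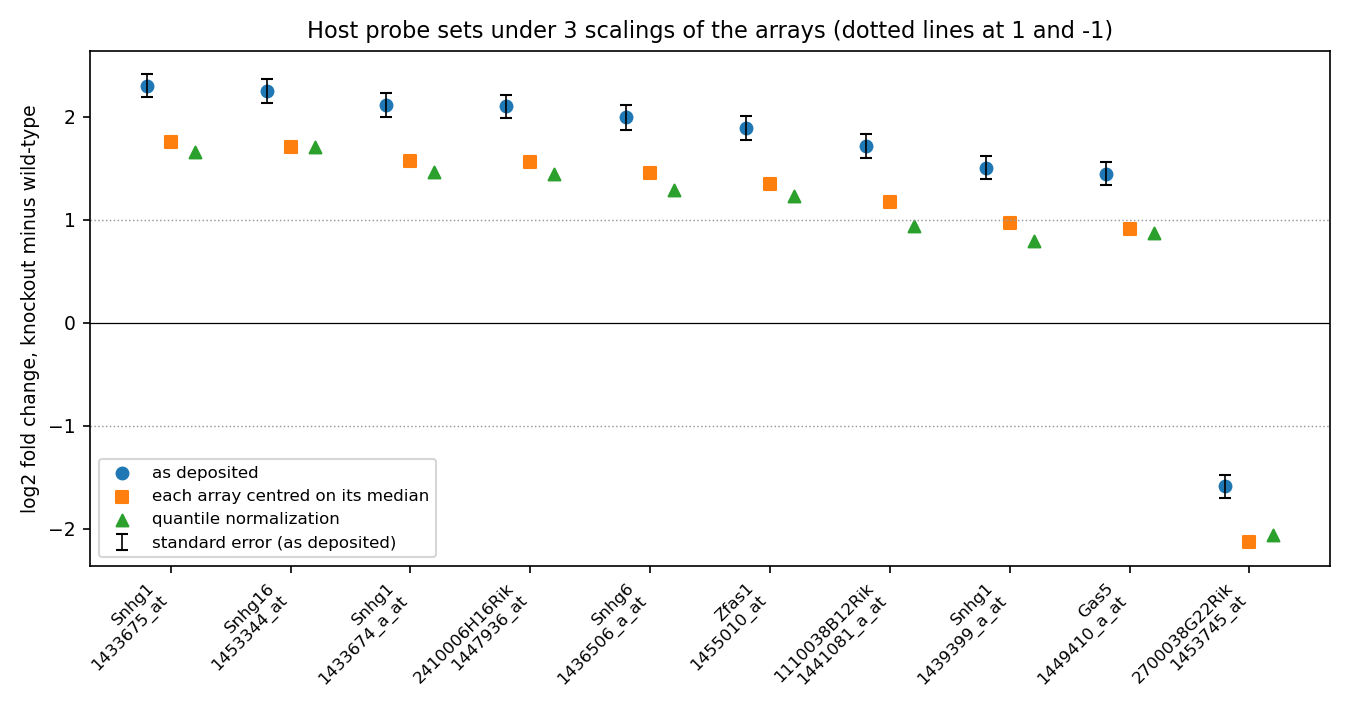
Log2 fold change, knockout minus wild-type (y axis), of each host probe set with the values as deposited (circles, with the standard error from limma), with each array centred on its median (squares) and after quantile normalization (triangles). The higher hosts move toward 0 and 2700038G22Rik away from it, to -2.13 and -2.07, and none changes sign.

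The sequence around the annotated start was read for the 7 hosts with an entry in the RefSeq promoter table (GRCm38.p6). Snhg6 was not among them. Windows of 20 bases before and 20 bases from the start on are printed, since the TOP start is a feature that hosts are known for and the selection on intensity did not use it. The start is base 21, written 5′ to 3′ on the strand of the gene, and capitals mark an unbroken run of C and T with at least 5 bases in the 10 bases on either side of the start. Gas5 has 2 annotated starts and so does 1110038B12Rik.
Gas5, first start, chr1:161034581-161034620, plus strand: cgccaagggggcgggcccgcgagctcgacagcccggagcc
Gas5, second start, chr1:161035146-161035185, plus strand: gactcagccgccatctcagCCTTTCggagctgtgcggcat
Snhg1, chr19:8723467-8723506, plus strand: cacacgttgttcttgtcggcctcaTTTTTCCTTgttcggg
Snhg16, chr11:116671640-116671679, plus strand: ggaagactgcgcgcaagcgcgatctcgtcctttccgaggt
Zfas1, chr2:167062914-167062953, plus strand: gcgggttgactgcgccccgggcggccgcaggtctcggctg
1110038B12Rik, first start, chr17:34952452-34952491, minus strand: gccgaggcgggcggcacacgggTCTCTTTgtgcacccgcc
1110038B12Rik, second start, chr17:34952449-34952488, minus strand: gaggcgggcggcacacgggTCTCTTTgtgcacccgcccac
2410006H16Rik, chr11:62602857-62602896, plus strand: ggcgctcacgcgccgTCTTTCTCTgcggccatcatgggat
2700038G22Rik, chr5:23850577-23850616, plus strand: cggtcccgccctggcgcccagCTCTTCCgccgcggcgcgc

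A strict TOP start, with C as the first base and at least 4 pyrimidines after it, was found at the second start of Gas5 and of 1110038B12Rik, which is 2 of 7 hosts. It is present at any start of 3.01% of the 27025 genes in the promoter table. A run of at least 5 pyrimidines within 10 bases of a start was present in 5 of 7 hosts, namely Gas5, Snhg1, 1110038B12Rik, 2410006H16Rik and 2700038G22Rik, and in 38.3% of all genes and 38.5% of long noncoding genes. The host that was lower in the knockout was thus among those with a run, and Snhg16 and Zfas1, which were higher, were not. For Snhg16 this rests on the cut at 10 bases, since a run, tcctttcc, begins within them and extends past them. The starts of 1110038B12Rik lie so close that they share 1 run. Genes with 2 or more annotated starts, as for 2 of these 7 hosts and 15.4% of all genes, have more chances of a match. These counts are a description of letters near annotated starts, and the starts used in the heart are not analysed here.

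Other promoter letters were searched from 250 bases before to 50 bases after the start. The E-box CACGTG, searched on both strands, was in none of the 7 hosts and in 8.09% of all genes. TATAAA, searched before the start on the strand of the gene, was in 1110038B12Rik alone of the 7, and in 8.94% of all genes. CCAAT on either strand was likewise in 1110038B12Rik alone, and in 41.1% of all genes. The windows of the hosts were rich in G and C, with a median of 62.0% over their 9 starts against 52.7% over the 32851 promoters of the table.

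The rest of the pathway is thinly represented among the selected probe sets. None of 18 other noncoding snoRNA hosts listed, none of 19 genes of the snoRNA-protein particle and its assembly, none of 16 nonsense-mediated decay factors, none of 10 stress transcripts known to be sensitive to that decay and none of 24 translation genes with a TOP start is in the table, and they are not analysed here. Of 51 protein-coding hosts listed, 1 is in the table and was higher in the knockout. This is Taf1d, a subunit of the selectivity factor of RNA polymerase I, whose span holds 6 annotated snoRNAs. Its probe set, which ends in _x_at and so has probes that can match other transcripts, read 116.5, 121 and 144 in the wild-type and 371, 336 and 423 in the knockout, a log2 fold change of 1.57 with a standard error of 0.12. One further protein-coding gene of the table has a snoRNA in its span, Rabgap1l, a Rab GTPase-activating protein-like gene, with a log2 fold change of 1.24. Both values were higher in every knockout array. A snoRNA lies in the span of 2 of the 204 protein-coding genes in the table, which is 0.980%, beside the 1.70% of all protein-coding genes in RefSeq.

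Of 26 genes of ribosome biogenesis, 2 are in the table, Taf1d and Rrs1, a factor for assembly of the large ribosomal subunit. Rrs1 read 409, 383 and 426 in the wild-type and 977, 848 and 852 in the knockout, a log2 fold change of 1.14. Of 18 genes of mTOR signaling and growth restraint, the selection holds 2, each of them higher, Sesn1, a sestrin that restrains mTORC1, at 1.90 and Foxo3, a transcription factor held in check by insulin signaling, at 1.48. Of 16 genes of the glucocorticoid receptor and its targets, 3 are in the table and all 3 were higher, Klf15 at 2.55, Glul, the glutamine synthetase gene, at 1.94 and Klf9 at 1.16. The receptor gene Nr3c1 is not analysed here. With 183 of 271 probe sets on the higher side, counts of 1 to 3 in one direction show nothing particular to these lists.

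The other 3 long noncoding genes of the table hold no annotated snoRNA, and 1 of them was higher and 2 were lower. Chaserr, a noncoding RNA beside Chd2, read 257, 272 and 228 in the wild-type and 504, 476 and 535 in the knockout, a log2 fold change of 1.00. Firre, a nuclear noncoding RNA of the X chromosome, was at -1.16 on a probe set ending in _x_at, and 5033430I15Rik was at -1.06. As deposited, all 3 differed by less than any host, the smallest host difference being that of Gas5 at 1.45. This order depends on the scaling: with each array centred on its median Firre came to -1.70 and 5033430I15Rik to -1.605. In size both then exceeded every higher host by its brightest probe set, from Gas5 at 0.90 to Snhg1 at 1.57, except Snhg16 at 1.71. Chaserr, at 0.46, stayed below every host, and 2700038G22Rik, at -2.13, stayed beyond all 3.

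Outside the hosts, the genes whose 6 values followed the mean profile of the 7 higher hosts most closely were Glul, Sesn1 and Capn10, a calpain protease gene. Their distances, over the 6 arrays and with each profile centred on its own mean log2 intensity, were 0.21, 0.23 and 0.25. Glul has a second, dimmer probe set at 2.98, and Sesn1 has 4 probe sets at 1.90 to 2.30. The nearest to 2700038G22Rik were the tubulin gene Tuba4a, Reep1, which encodes a protein that shapes the endoplasmic reticulum, and Ppil1, a peptidyl-prolyl isomerase gene, at 0.19, 0.22 and 0.25. Since the difference between genotypes makes up most of each profile, nearness mainly records a like log2 fold change, which was 1.94, 1.90 and 1.77 for the first 3 genes and -1.63, -1.65 and -1.45 for the others.

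The listed markers of the cells in a ventricle were nearly all outside the selected probe sets. Of 48 markers listed for cardiomyocytes, atrial cardiomyocytes, fibroblasts, endothelium, smooth muscle and pericytes, leukocytes, erythroid cells, epicardium and proliferation, Col3a1, a collagen chain made by fibroblasts, is the single one in the table. It read 1646, 1905 and 1679 in the wild-type and 815.8, 791.8 and 831 in the knockout, with means of 1743 ± 141 and 813 ± 19.8 (SD, n = 3 each) and a log2 fold change of -1.10. Examples from outside the list, named after their values were seen, went both ways. Among genes of the extracellular matrix, Dpt stood at -1.05, Col6a3 at -1.004 and Cthrc1 at -1.47, while Timp3 stood at 1.76. Among genes of DNA replication and repair, Mcm3 stood at -1.996, Pola1 at -1.89, Mcm4 at -1.88 and Brca2 at -1.12. Among genes of the cell cycle, E2f1 stood at -1.22, while Tfdp2 (2.20 and 2.88), Rbl2 (1.52) and Ccng2 (1.295) were higher. The part of these genes in the differences of the hosts was not tested. No probe set of the Mir125b-1 locus was analysed here, so the loss of the microRNA itself was not checked on these arrays.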

How the data were processed

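Ventricular RNA of 3 wild-type and 3 knockout samples was labelled with biotin and hybridised to Affymetrix arrays. The deposited values are linear intensities per probe set, and per the methods the study used GeneSpring GX and a cutoff of 1 on the log2 fold change. Summarization and normalization are not given in the sources used here. The deposited table holds 271 probe sets, which changes what a value can show, since small differences are missing and standard errors can be too small. The number of arrays limits the precision.

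The log2 of each deposited intensity (floor 1, reached by none) was fitted over all probe sets with lmFit and eBayes of limma 3.58.1 under R 4.3.3. No p is given for a host. Tables were made in Python 3.11.15 with pandas 2.3.3. The fit was tested on simulated data with known changes. Gene names came from GEO's annotation of the array, updated by gene number to RefSeq for GRCm38.p6, and each of the 253 probe sets with a single gene had a match. The brightest probe set stood for a gene with several. The members and lists were chosen with earlier results of these data known. Genes named by rule are the hosts, list members in the table, other long noncoding genes, other genes holding a snoRNA, and the 3 genes nearest to each profile. Some genes of the matrix, DNA replication and repair and the cell cycle were added after their values were seen.

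Groups came from the sample titles. The replicate numbers were not taken as pairs. A snoRNA was counted in a host when it lay within the host's span, whatever its strand. Alternatives were median centring, quantile normalization, the replicate number as a block, trended and robust eBayes, the methods' t-test, a filter on the dimmest 25% of probe sets, omission of each array, the ratio of mean linear intensities, 1 probe set per host, and a looser promoter search.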

Additional observations from a re-analysis of the deposited data

How the results depend on the processing

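The median log2 fold change of the host probe sets, 1.94 as deposited, came to 1.40 after median centring of the arrays and to 1.26 after quantile normalization. Each scaling moved all 10 host probe sets by more than their spread. Centring takes the same amount from every probe set and quantile normalization takes different amounts, and both are estimated on selected probe sets. The looser promoter search, 5 pyrimidines in a row within 10 bases of the start, held in 6 of 9 host starts in place of 2. Deviations of same-numbered arrays from their group means had correlations of -0.016, 0.007 and 0.084 over probe sets. On selected probe sets this cannot decide whether same-numbered arrays were handled together. With the replicate number as a block the median stayed at 1.94, and the standard errors of the host probe sets ranged from 0.08 to 0.12. Leaving out 1 array gave medians from 1.90 to 1.96. No alternative changed the direction of a host probe set, though the selection on a difference of at least 1 leaves little room for that. All 10 passed the filter on dim probe sets. The methods' t-test, with and without Benjamini-Hochberg adjustment, limma with trended and robust eBayes, and both scalings called all 271 probe sets at 0.05, as the selection fixes. What the table cannot show is the signal over background, because detection calls and unchanged probe sets are not analysed here.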
